A study of Homo sapiens with 4 samples.

Results

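The module studied is a set of 34 NF-kB target genes, cytokines and chemokines, picked by symbol out of the 57905 genes of a raw gene count table. The rule used gene symbols and no measured value, and every member was found, CXCL8 under its older symbol IL8. The members were, however, chosen with earlier results of these data known. NF-kB is a family of dimeric transcription factors that IkB proteins hold in the cytoplasm until a kinase complex marks those inhibitors for destruction. The freed dimers switch on genes for chemokines, cytokines, adhesion molecules and survival factors, and also for their own inhibitors, so that the response limits itself. Lung epithelial and lung adenocarcinoma cells make several of these chemokines, which attract neutrophils and monocytes.

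The libraries were bulk RNA-seq of A549, an established human lung adenocarcinoma (LUAD) cell line, made from poly(A) RNA, with 1 library per condition. The 4 lines carried a scramble control hairpin (sc), a hairpin against DCBLD2 (shDCBLD2), an empty vector, or a vector for overexpression of DCBLD2, a transmembrane protein of the tumour cell surface. All were made with lentivirus, the hairpin plasmid carrying a puromycin marker and the expression plasmid a blasticidin marker, so the controls differ in vector. The shDCBLD2 library is titled shD5, and which hairpin sequence that title stands for, and whether the lines were clones, was not given in the sources used here. The series asks what DCBLD2 does to the transcriptome of LUAD cells.

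Totals were 19104052 counts for sc, 21537283 for shDCBLD2, 18718562 for the empty vector and 16601633 for the DCBLD2 overexpression vector, a 1.30-fold range. With 1 library per condition no difference below has a replicate check, and each comparison is one of libraries, not of conditions. The 95% intervals given are exact (Clopper-Pearson) and cover counting error only. A gene is named as called when it averaged 1 CPM (scaled counts-per-million) or more over the 4 libraries, differed 2-fold or more, and had an interval that did not reach a ratio of 1.

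The transcript the vectors were meant to alter did not follow every label. DCBLD2 (ENSG00000057019) reached 9859 counts (504 CPM) in sc and 4259 (197 CPM) in shDCBLD2, and 7970 (434 CPM) in the empty vector line and 4000 (242 CPM) where the label reads DCBLD2 overexpression. It was lower in shDCBLD2 than in sc, in the direction of the label, but also lower in the labelled overexpression library than in the empty vector, with a log2 ratio of -0.84 (-0.90 to -0.79). That library is therefore called by its label below, and no direction drawn from it is a direction of DCBLD2 level. Epithelial markers were present in every library, with a summed level of 17547 CPM in sc, 12573 in shDCBLD2, 14842 in the empty vector and 19220 in the labelled overexpression library. Of these, EPCAM and KRT19 were called higher in the labelled overexpression library than in the empty vector, beside 6.42% of all genes. EPCAM, CDH1 and KRT19 were called lower in shDCBLD2 than in sc, beside 5.62% of all genes. With the control libraries exchanged EPCAM was called in neither comparison. The 6 genes known to be abundant in A549 were likewise present, at 19127, 11514, 16680 and 15721 CPM in the same order. All 6 were lower in shDCBLD2 than in sc, and AKR1C1 and ALDH3A1 were called so, beside 5.62% of all genes. The alveolar type II markers NKX2-1, SFTPA1, SFTPB and SFTPC summed to less than 1 CPM in each library.

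Of the 34 members, 28 passed the level filter and 6 did not. The members below it were IL1A, IL1B, IL24, CSF2, CSF3 and CX3CL1, none of which exceeded 31 counts in any library. In the labelled overexpression library against the empty vector, 7 members were called higher and 3 lower, where 6.42% of the 13966 genes past the filter were called higher and 5.35% lower. CCL5 and CCL20 passed the filter only with the labelled overexpression library, in which they are highest (means of 0.680 and 0.835 CPM over the other 3). With the filter set on the other 3 libraries, 26 members passed, and 6 were called higher and 3 lower, beside 4.51% and 5.67% of 13663 genes. In shDCBLD2 against sc, 2 members were called higher and 4 lower, beside 1.16% and 5.62% of all genes. Between the controls, the empty vector against sc, 1 member was called higher and 1 lower, beside 2.22% and 1.89% of all genes. Each control is part of the other comparisons too, since the empty vector is the reference of the labelled overexpression library and sc that of shDCBLD2.

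The median log2 ratio of the 28 members was 0.42 in the labelled overexpression library against the empty vector, -0.18 in shDCBLD2 against sc and 0.50 in the empty vector against sc. Over all genes past the filter the same medians were -0.04, 0.01 and -0.01. The members' middle was thus higher in the empty vector than in sc, and higher again in the labelled overexpression library. In bulk RNA, fewer cells making a transcript and less of it per cell cannot be told apart.

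**Figure D1:**
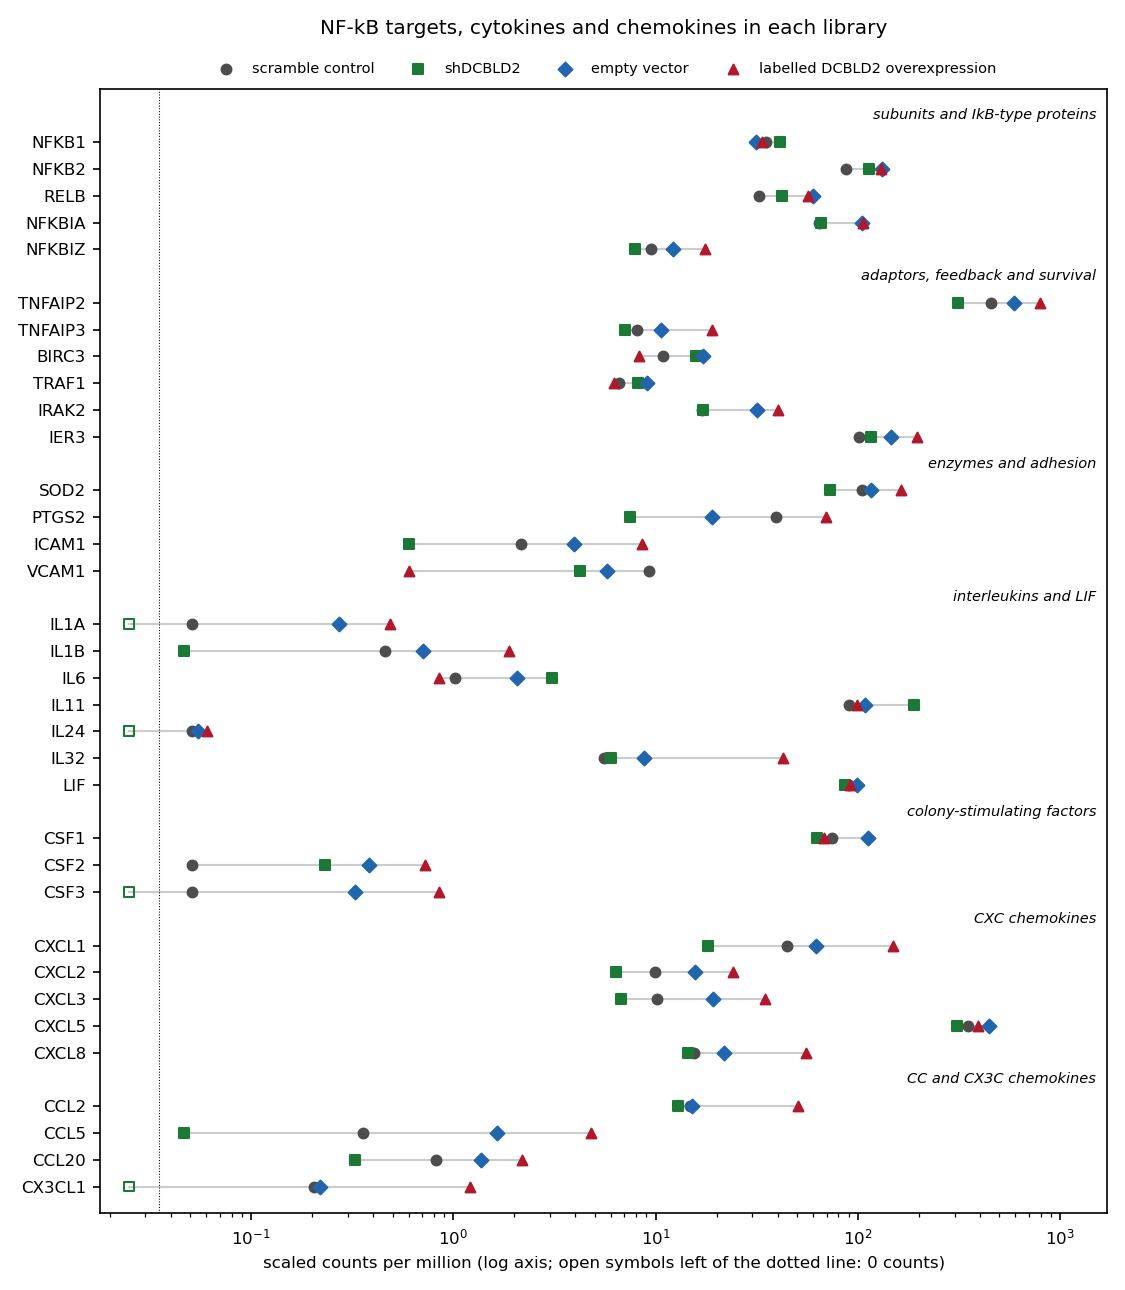
Level in CPM of each of the 34 members (log axis) in the scramble control, shDCBLD2, empty vector and labelled DCBLD2 overexpression libraries, 1 library each, grouped by role. For CXCL1 the levels run from 18.0 in shDCBLD2 to 149 in the labelled overexpression library, while NFKB1 stays between 31.2 and 41.4.

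Of the NF-kB subunits and IkB-type proteins, 0 of 5 were called in any comparison, where at most 6.42% of all genes were called higher and 5.62% lower. NFKB1, which encodes the p105 precursor of p50, gave 690 counts in sc, 892 in shDCBLD2, 573 in the empty vector and 553 in the labelled overexpression library (35.3, 41.4, 31.2 and 33.5 CPM). Its log2 ratios were small, at 0.10 (-0.07 to 0.27) for the labelled overexpression library against the empty vector, 0.23 (0.09 to 0.38) for shDCBLD2 against sc and -0.18 (-0.34 to -0.01) for the empty vector against sc. NFKB2, the p100 precursor of p52 in the alternative pathway, gave 87.3, 114, 131 and 130 CPM in the same order of libraries. RELB, the partner of p52, gave 32.3, 42.3, 59.9 and 56.4 CPM. Both were lowest in sc and level between the empty vector and the labelled overexpression library.

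The inhibitor IkB-alpha, encoded by NFKBIA and itself a classical NF-kB target, was higher in both vector libraries than in both hairpin libraries. NFKBIA gave 1259 counts in sc, 1407 in shDCBLD2, 1913 in the empty vector and 1741 in the labelled overexpression library (64.4, 65.2, 104 and 106 CPM). The hairpin libraries matched each other and so did the vector libraries, with log2 ratios of 0.02 (-0.09 to 0.13) for shDCBLD2 against sc, 0.02 (-0.08 to 0.11) for the labelled overexpression library against the empty vector, and 0.70 (0.59 to 0.80) for the empty vector against sc. NFKBIZ, an atypical nuclear IkB protein that promotes a subset of secondary response genes, gave 9.46, 7.88, 12.2 and 17.5 CPM. It was highest in the labelled overexpression library, at a log2 ratio of 0.52 (0.27 to 0.79) against the empty vector, short of 2-fold. In the deposited coordinates, whose build the file does not name, it overlaps NXPE3 on the same strand by 239 bases.

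Among adaptors, feedback regulators and survival factors, 1 of 6 was called, lower in the labelled overexpression library than in the empty vector, as were 5.35% of all genes. BIRC3 (ENSG00000023445), the ubiquitin ligase cIAP2 that protects cells from TNF-induced death, gave 212 counts in sc, 341 in shDCBLD2, 313 in the empty vector and 136 in the labelled overexpression library (10.8, 15.8, 17.1 and 8.24 CPM). It was lowest in the labelled overexpression library, where it was called lower than in the empty vector at -1.04 (-1.35 to -0.75). With sc as the reference BIRC3 was not called. TRAF1, an adaptor of TNF receptors, gave 6.59, 8.21, 9.10 and 6.24 CPM and stayed within 2-fold in each comparison.

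The other members of that group were highest in the labelled overexpression library. TNFAIP3, the deubiquitinase A20 that shuts the pathway off, gave 158 counts in sc, 152 in shDCBLD2, 195 in the empty vector and 313 in the labelled overexpression library (8.08, 7.05, 10.6 and 19.0 CPM), a log2 ratio of 0.83 (0.57 to 1.10) against the empty vector. TNFAIP2, a TNF-inducible protein, was the most heavily counted member at 8890, 6692, 10843 and 13043 counts (454, 310, 591 and 790 CPM). IRAK2, a kinase of the interleukin-1 and Toll-like receptor pathways, gave 17.0, 17.1, 31.5 and 40.1 CPM, and IER3, an immediate early stress gene, gave 101, 116, 145 and 195 CPM. None of these passed 2-fold in the planned comparisons, and for IRAK2 the step from sc to the empty vector, 0.89 (0.70 to 1.09), was larger than that from the empty vector to the labelled overexpression library, 0.35 (0.19 to 0.51).

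The enzymes and adhesion molecules held several members with wide ranges. PTGS2 (ENSG00000073756), the inducible cyclooxygenase COX-2 of prostaglandin synthesis, gave 773 counts in sc, 161 in shDCBLD2, 348 in the empty vector and 1148 in the labelled overexpression library (39.5, 7.46, 19.0 and 69.6 CPM). It was highest in the labelled overexpression library and lowest in shDCBLD2, and the control libraries lay between them but apart from each other. The log2 ratios were 1.87 (1.70 to 2.05) for the labelled overexpression library against the empty vector, -2.39 (-2.66 to -2.16) for shDCBLD2 against sc and -1.06 (-1.25 to -0.88) for the empty vector against sc. Because sc was above the empty vector, the labelled overexpression library was higher than sc by less than 2-fold, and PTGS2 was not called with sc as its reference.

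ICAM1 (ENSG00000090339) encodes an adhesion receptor for leukocyte integrins. It gave 42 counts in sc, 13 in shDCBLD2, 72 in the empty vector and 141 in the labelled overexpression library (2.15, 0.603, 3.92 and 8.54 CPM). It was low in all libraries, lowest in shDCBLD2 at -1.67 (-2.86 to -0.91) against sc, and highest in the labelled overexpression library at 1.10 (0.70 to 1.55) against the empty vector.

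VCAM1 (ENSG00000162692), an adhesion receptor for the integrin VLA-4 on leukocytes, went the other way in the labelled overexpression library. It gave 181 counts in sc, 91 in shDCBLD2, 105 in the empty vector and 10 in the labelled overexpression library (9.25, 4.22, 5.72 and 0.606 CPM). It was thus highest in sc, called lower in shDCBLD2 at -1.11 (-1.51 to -0.76), and nearly lost from the labelled overexpression library at -3.03 (-4.34 to -2.30) against the empty vector. With the empty vector as the reference, the shDCBLD2 library was below it by less than 2-fold. It was the member called lower in both of these comparisons, as 25 genes past the filter were (0.179%). SOD2, the mitochondrial superoxide dismutase, gave 105, 72.4, 116 and 163 CPM and was not called. In the deposited coordinates SOD2 overlaps WTAP and ACAT2 on the opposite strand, and with the strand setting of the counting not known its counts are less certain.

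**Figure D2:**
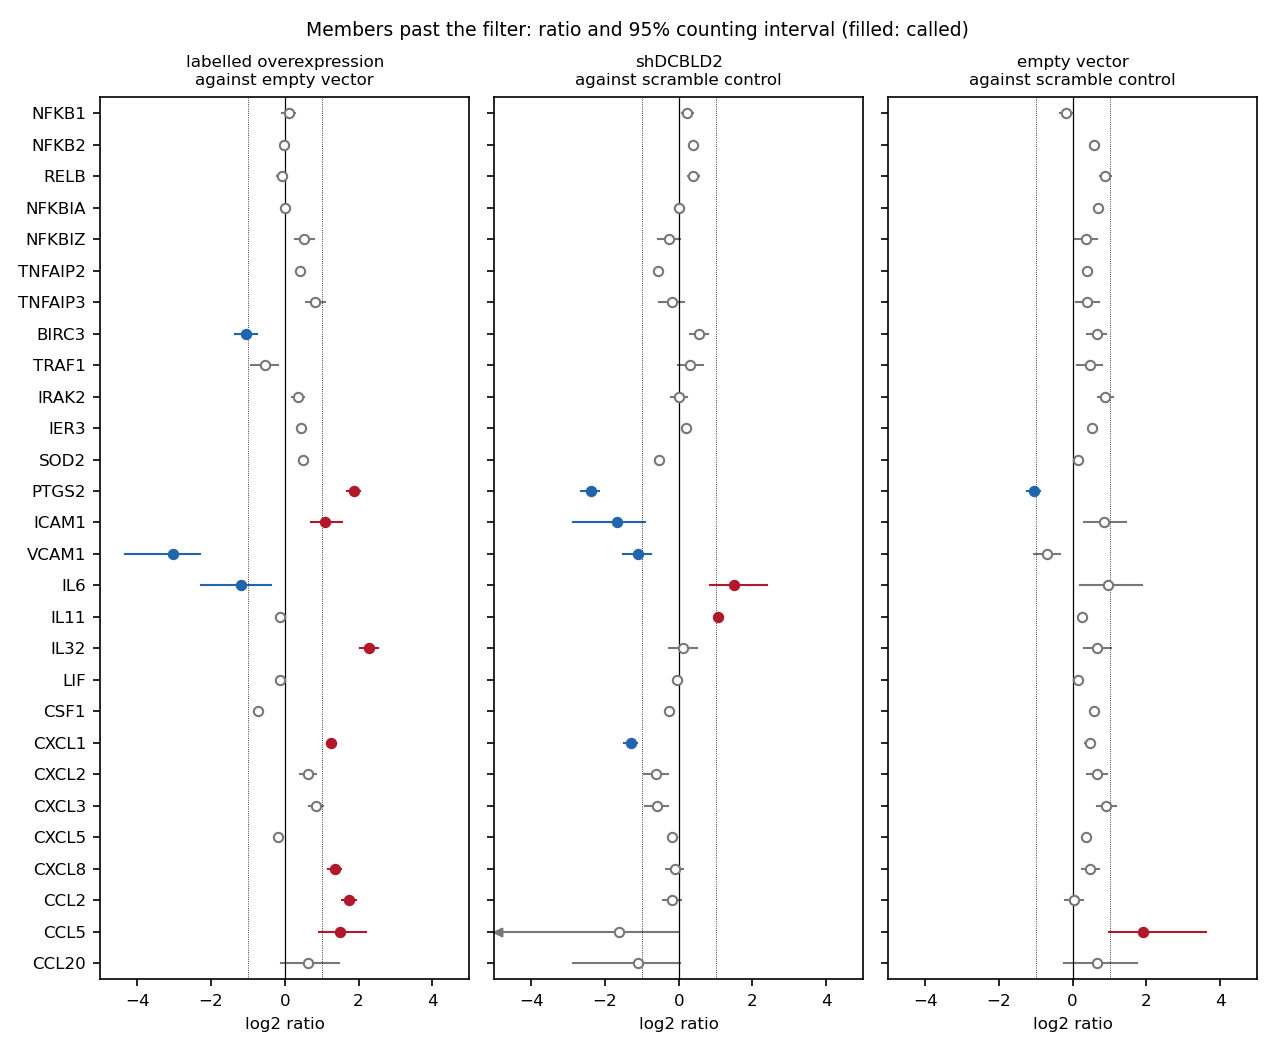
Log2 ratio of the 28 members past the filter in the 3 comparisons, with exact 95% counting intervals (lines), 1 library a side. Filled points are members called at 2-fold, red higher and blue lower, dotted lines mark 2-fold, and an arrowhead marks an interval that runs off the axis. PTGS2 is called in all 3 panels, at 1.87, -2.39 and -1.06.

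Of the interleukins and LIF, 4 of 7 passed the filter, and IL32, IL6 and IL11 were called in at least 1 comparison. In the labelled overexpression library 1 was called higher and 1 lower, beside 6.42% and 5.35% of all genes. In shDCBLD2 2 were called higher and 0 lower, beside 1.16% and 5.62% of all genes. IL32 (ENSG00000008517), a proinflammatory cytokine, gave 108 counts in sc, 129 in shDCBLD2, 161 in the empty vector and 706 in the labelled overexpression library (5.52, 5.98, 8.77 and 42.8 CPM). It was high in the labelled overexpression library alone, at 2.27 (2.04 to 2.54) against the empty vector, the highest ratio of the 28 members in that comparison, and it was level between shDCBLD2 and sc at 0.11 (-0.27 to 0.50).

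IL6 (ENSG00000136244), a cytokine of the acute phase response, was scarce, with 20 counts in sc, 66 in shDCBLD2, 38 in the empty vector and 14 in the labelled overexpression library (1.02, 3.06, 2.07 and 0.848 CPM). It was highest in shDCBLD2, at 1.49 (0.84 to 2.38) against sc, and lowest in the labelled overexpression library, at -1.19 (-2.29 to -0.37) against the empty vector. These calls depend on the reference, since IL6 was called in neither comparison when the control libraries were exchanged.

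IL11 (ENSG00000095752), a cytokine of the IL-6 family that signals through gp130, was abundant, with 1768 counts in sc, 4064 in shDCBLD2, 1978 in the empty vector and 1635 in the labelled overexpression library (90.4, 188, 108 and 99.1 CPM). It was high in shDCBLD2 alone, at 1.06 (0.98 to 1.14) against sc, and level among the others. The ratio lies just past 2-fold, and with the empty vector as the reference IL11 was not called. LIF, another gp130 cytokine, gave 90.0, 86.6, 98.9 and 91.2 CPM and differed little between libraries.

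The interleukin-1 genes stayed at trace level. IL1B gave 9 counts in sc, 1 in shDCBLD2, 13 in the empty vector and 31 in the labelled overexpression library, and IL1A gave 1, 0, 5 and 8. IL1B was below the filter, and with no filter it was called in both comparisons, with a log2 ratio of 1.29 (0.43 to 2.47) for the labelled overexpression library against the empty vector and -1.90 (-8.77 to -0.46) for shDCBLD2 against sc. IL24, a cytokine of the IL-10 family, had no more than 1 count in any library. A difference in IL1A or IL24 was not detectable at this depth.

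Among the colony-stimulating factors, the macrophage factor CSF1 alone passed the filter. CSF1 gave 1461 counts in sc, 1350 in shDCBLD2, 2065 in the empty vector and 1123 in the labelled overexpression library (74.7, 62.6, 112 and 68.0 CPM). It was highest in the empty vector library, and its ratio of -0.73 (-0.83 to -0.62) in the labelled overexpression library is taken against that high reference. The granulocyte-macrophage factor CSF2 gave 1, 5, 7 and 12 counts and the granulocyte factor CSF3 gave 1, 0, 6 and 14 counts, both highest in the labelled overexpression library at trace level.

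The CXC chemokines of the module attract neutrophils through CXCR2, and CXCL8 also through CXCR1, and their genes lie close together on chromosome 4. Their promoters are shown because the levels of CXCL1, CXCL2, CXCL3 and CXCL8 had the same order of libraries, which 13.5% of all genes had. For CXCL8 the step between shDCBLD2 and sc was within counting error. The promoter table, from RefSeq on build GRCh38.p14, holds 26 of the 34 members, with no entry for RELB, IER3, LIF, CSF1, CSF3, CCL2, CCL5 and CX3CL1. The lines below give the 120 bases before the gene start, 5′ to 3′ on the gene's strand, with capitals at matches to the kappa-B consensus or to GGAATTTCC, a short core that overlaps it, and in IL11 to TGANTCA, the AP-1 motif. The stretches are chr4:73869273-73869392 (plus strand) for CXCL1, chr4:74099196-74099315 (minus) for CXCL2, chr4:74038690-74038809 (minus) for CXCL3, chr4:73998678-73998797 (minus) for CXCL5, chr4:73740449-73740568 (plus) for CXCL8, chr16:3065283-3065402 (plus, the first of 2 listed starts) for IL32, chr1:100719622-100719741 (plus) for VCAM1, chr7:22727080-22727199 (plus) for IL6 and chr19:55370464-55370583 (minus) for IL11.
CXCL1: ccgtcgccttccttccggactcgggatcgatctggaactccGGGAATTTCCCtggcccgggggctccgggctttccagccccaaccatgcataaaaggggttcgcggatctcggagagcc
CXCL2: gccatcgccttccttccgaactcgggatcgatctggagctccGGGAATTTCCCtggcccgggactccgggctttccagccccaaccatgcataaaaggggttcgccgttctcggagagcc
CXCL3: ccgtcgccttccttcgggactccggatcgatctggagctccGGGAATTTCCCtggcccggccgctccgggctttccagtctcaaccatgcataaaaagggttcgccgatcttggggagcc
CXCL5: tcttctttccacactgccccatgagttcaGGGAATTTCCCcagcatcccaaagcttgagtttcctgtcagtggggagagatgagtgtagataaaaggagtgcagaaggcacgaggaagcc
CXCL8: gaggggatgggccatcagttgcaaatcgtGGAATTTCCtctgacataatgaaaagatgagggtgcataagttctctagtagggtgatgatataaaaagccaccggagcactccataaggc
IL32: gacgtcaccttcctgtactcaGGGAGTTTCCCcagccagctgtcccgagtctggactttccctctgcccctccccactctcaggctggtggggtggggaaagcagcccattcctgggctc
VCAM1: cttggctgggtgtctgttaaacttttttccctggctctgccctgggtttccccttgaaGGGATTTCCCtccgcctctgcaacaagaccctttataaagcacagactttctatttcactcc
IL6: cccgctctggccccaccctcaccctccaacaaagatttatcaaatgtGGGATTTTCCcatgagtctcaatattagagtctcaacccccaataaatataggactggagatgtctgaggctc
IL11: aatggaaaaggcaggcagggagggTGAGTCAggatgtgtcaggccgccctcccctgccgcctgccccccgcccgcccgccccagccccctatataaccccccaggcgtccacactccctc

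The same run of 11 bases, GGGAATTTCCC, stood in the promoters of CXCL1, CXCL2, CXCL3 and CXCL5, beginning 79, 78, 79 and 91 bases before the start. CXCL8 held the shorter core 91 bases before its start. Searched on both strands over the 250 bases before each start, the kappa-B consensus was found for 14 of the 26 members, against 6.28% of the 27305 genes in the table. The GGAATTTCC core was found for 9 of the 26, against 0.502% of all genes, and 7 members held both. TGANTCA was found for IL1A, IL11 and CXCL8, 3 of 26, against 8.06% of all genes. Matches do not sort the members by direction: CXCL1, IL32, VCAM1, IL6 and BIRC3 each hold the consensus, as does CXCL5, and PTGS2 holds none of these letters in its window. The module was listed as NF-kB targets, so kappa-B matches above the share of all genes are no separate result. The motifs were chosen with the members' values known, and a match describes letters only.

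CXCL1 (ENSG00000163739), a neutrophil attractant, gave 876 counts in sc, 389 in shDCBLD2, 1142 in the empty vector and 2466 in the labelled overexpression library (44.8, 18.0, 62.2 and 149 CPM). It was lowest in shDCBLD2 and highest in the labelled overexpression library, with the controls between them. It was called in both comparisons, at 1.26 (1.16 to 1.37) for the labelled overexpression library against the empty vector and -1.31 (-1.49 to -1.14) for shDCBLD2 against sc, and the controls differed by 0.47 (0.35 to 0.60).

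CXCL2 and CXCL3, close paralogs of CXCL1, ran in the same order of libraries. CXCL2 gave 193 counts in sc, 138 in shDCBLD2, 286 in the empty vector and 397 in the labelled overexpression library (9.87, 6.40, 15.6 and 24.1 CPM). CXCL3 gave 199, 145, 353 and 574 counts (10.2, 6.72, 19.2 and 34.8 CPM). Neither reached 2-fold in the planned comparisons, though both did, in each, with the control libraries exchanged. The labelled overexpression library was above the empty vector by 0.62 (0.40 to 0.85) for CXCL2 and 0.85 (0.66 to 1.05) for CXCL3, and shDCBLD2 against sc gave -0.62 (-0.95 to -0.30) and -0.59 (-0.92 to -0.28). Their sequences are near-identical in places, and 5.73% of the 50-base windows of the longest CXCL1 transcript, 9.24% of those of CXCL2 and 5.26% of those of CXCL3 occur in another of these genes (GENCODE 29), so reads there could have been assigned to either or dropped.

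CXCL8 (ENSG00000169429), the interleukin-8 gene, gave 303 counts in sc, 310 in shDCBLD2, 397 in the empty vector and 914 in the labelled overexpression library (15.5, 14.4, 21.6 and 55.4 CPM). It was high in the labelled overexpression library alone, at 1.35 (1.19 to 1.53) against the empty vector. Unlike CXCL1 it was level between shDCBLD2 and sc, at -0.11 (-0.34 to 0.13). CXCL5, the epithelial chemokine ENA-78, gave 6799 counts in sc, 6664 in shDCBLD2, 8124 in the empty vector and 6434 in the labelled overexpression library (348, 309, 443 and 390 CPM). It carries the same promoter run as CXCL1 and was nearly flat, at -0.18 (-0.23 to -0.14) and -0.17 (-0.22 to -0.12) in the comparisons with a DCBLD2 vector.

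**Figure D3:**
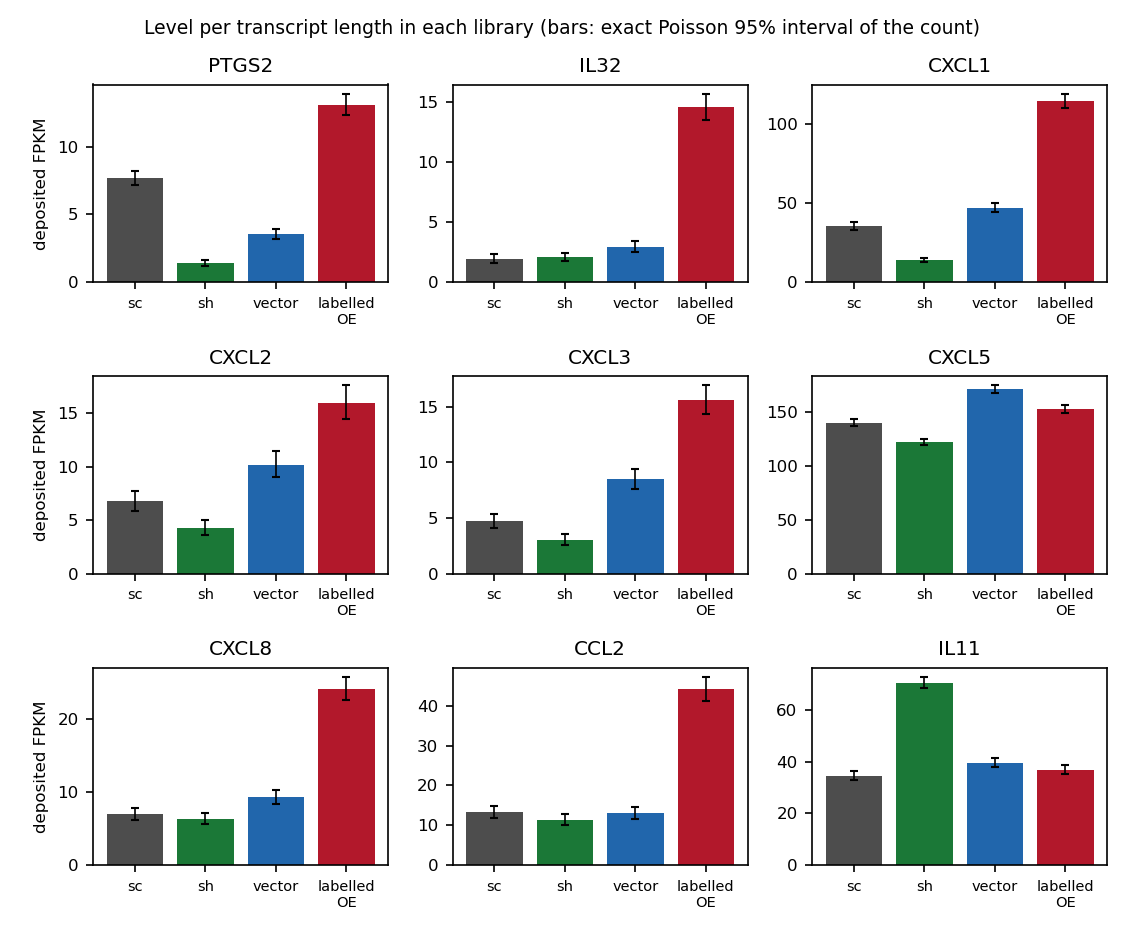
Deposited FPKM (a level per transcript length) of 9 members in the scramble control (sc), shDCBLD2 (sh), empty vector and labelled overexpression (OE) libraries, with exact Poisson 95% intervals of the count. CCL2, CXCL8 and IL32 stand high in the labelled overexpression library alone, IL11 in shDCBLD2 alone, and CXCL1 falls from 114.6 to 13.9 FPKM between the highest and the lowest library.

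Of the 3 CC chemokines, all past the filter, CCL2 and CCL5 were called higher in the labelled overexpression library and CCL20 was not. The share of all genes called higher there was 6.42%, and CCL5 and CCL20 passed the filter only with that library. CCL2 (ENSG00000108691), the main monocyte attractant, gave 289 counts in sc, 279 in shDCBLD2, 277 in the empty vector and 833 in the labelled overexpression library (14.8, 12.9, 15.1 and 50.5 CPM). It was level in the other 3 libraries and higher in this one by 1.74 (1.54 to 1.94) against the empty vector, and it was called with either control as the reference.

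CCL5 (ENSG00000161570), which attracts T cells and monocytes, was scarce, with 7 counts in sc, 1 in shDCBLD2, 30 in the empty vector and 79 in the labelled overexpression library (0.358, 0.0464, 1.63 and 4.79 CPM). It was called higher in the labelled overexpression library, at 1.49 (0.93 to 2.21) against the empty vector, and it was the member called higher in the empty vector than in sc, at 1.91 (0.98 to 3.62). Without the labelled overexpression library its mean fell below the filter, and that call between the controls was lost. The interval for shDCBLD2 against sc, -8.44 to 0.01, reaches no change, with 1 count on one side. CCL20, the ligand of CCR6, gave 16, 7, 25 and 36 counts and, in the planned comparisons, no interval that excluded no change. Scaled by library totals alone, CCL5 and CCL20 were both called lower in shDCBLD2 than in sc, as were 6.001% of all genes. CX3CL1, a membrane-bound chemokine, gave 4, 0, 4 and 20 counts, below the filter and highest in the labelled overexpression library, at 2.03 (0.90 to 4.48) against the empty vector, which is called when no filter is set.

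Levels of different genes can be set side by side only per length, which the deposited FPKM gives. In sc the highest FPKM among the members were 140 for CXCL5, 92.5 for TNFAIP2, 76.6 for IER3, 35.4 for CXCL1 and 34.7 for IL11. In the labelled overexpression library TNFAIP2 (156 FPKM) and CXCL5 (153 FPKM) led, then IER3 (143 FPKM), CXCL1 (115 FPKM), and NFKBIA and CCL2 at 44.2 and 44.1 FPKM. In shDCBLD2 IL11 stood at 70.7 FPKM, next after CXCL5 (122 FPKM) and IER3 (85.6 FPKM), ahead of TNFAIP2. CXCL5 was the chemokine with the highest level in every library, and CXCL1 came nearest to it in the labelled overexpression library.

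Across all roles, the labelled overexpression library held the highest level of 17 of the 28 members past the filter, where it held that of 34.2% of all genes. shDCBLD2 held the lowest level of 16 of the 28, against 30.5% of all genes. With the filter set on the other 3 libraries, these were 15 and 14 of 26 members, beside 32.3% and 29.7% of all genes. For 12 of the 28 the order was shDCBLD2, sc, empty vector and labelled overexpression from low to high, an order that 13.5% of all genes had and that was picked out after the values were seen. With that filter it was 10 of 26 members, without CCL5 and CCL20, beside 13.0% of all genes. The 12 were NFKBIZ, TNFAIP2, TNFAIP3, SOD2, ICAM1, CXCL1, CXCL2, CXCL3, CXCL8, CCL2, CCL5 and CCL20, and no member past the filter had the reverse order, which 16.6% of all genes had. Several of the steps are within counting error, as for CCL2 and CXCL8 between shDCBLD2 and sc.

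The comparisons of the labelled overexpression library with the empty vector and of shDCBLD2 with sc have no library in common. PTGS2, ICAM1 and CXCL1 were called higher in the former and lower in the latter, as were 303 genes past the filter (2.17%). IL6 was called lower in the former and higher in the latter, as were 34 genes (0.243%). With the control libraries exchanged, the labelled overexpression library against sc had 11 members called higher and 1 lower, beside 8.08% and 8.98% of all genes, and shDCBLD2 against the empty vector had 0 higher and 7 lower, beside 2.23% and 8.01%. With the filter set on the other 3 libraries as well, which drops CCL5 and CCL20, the former had 9 called higher and 1 lower, beside 6.19% and 9.34% of all genes, and the latter 0 higher and 5 lower, beside 2.21% and 7.56%. ICAM1 and CXCL1 kept their calls in both, PTGS2 was called lower in shDCBLD2 alone, and IL6 was called in neither. With the controls exchanged, CXCL2 and CXCL3 were called higher in the labelled overexpression library and lower in shDCBLD2 under either filter. CCL5 and CCL20 were called so only under the filter over the 4 libraries. TNFAIP3 and IRAK2 were called higher in the labelled overexpression library under either filter. No member was called higher in both planned comparisons, as 32 genes were (0.229%). DCBLD2 itself was lower in both shDCBLD2 and the labelled overexpression library than in their controls.

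**Figure D4:**
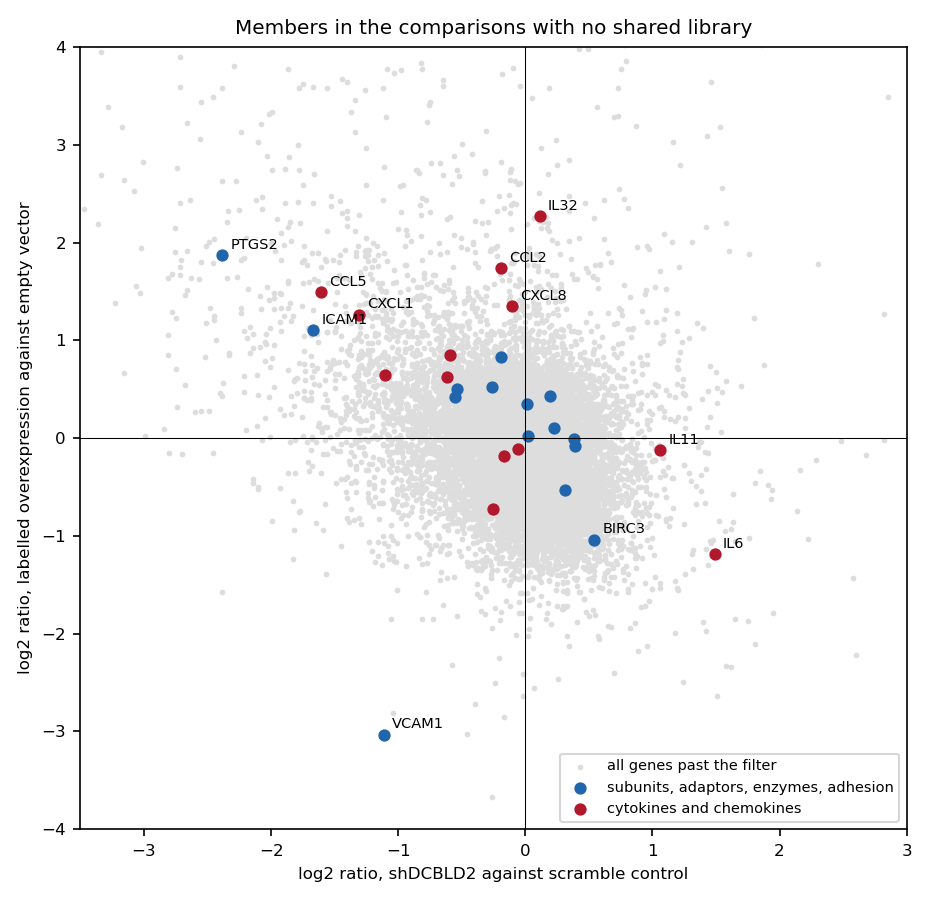
Log2 ratio of the labelled overexpression library against the empty vector (vertical) and of shDCBLD2 against the scramble control (horizontal), for all 13966 genes past the filter (grey) and the members (coloured). Members called in either comparison are named, 121 genes lie outside the axes, and PTGS2, ICAM1 and CXCL1 sit in the upper left while VCAM1 lies far to the lower left.

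The control libraries also differed from each other. The empty vector was above sc for 25 of the 28 members, the others being NFKB1, PTGS2 and VCAM1, while 6876 of the 13966 genes were above 0. Scaled by library totals alone the count was 24, with CCL2 at -0.03. RELB at 0.89 (0.75 to 1.03), CXCL3 at 0.91 (0.66 to 1.18) and IL6 at 0.95 (0.20 to 1.88) lay just under 2-fold. At a 1.5-fold threshold 12 members were called higher in the empty vector than in sc and 2 lower, beside 7.07% and 6.67% of all genes. The vectors of the control libraries differ, which cannot be told apart from other differences between those lines.

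The wider pathway was read from lists of genes grouped by function and chosen with earlier results of these data known. Of 41 upstream genes (receptors, adaptors, kinases and further NF-kB proteins), 34 passed the filter, and in the labelled overexpression library against the empty vector 0 were called higher and 2 lower, beside 6.42% and 5.35% of all genes. These were REL, the c-Rel subunit, at 3.78 CPM in sc, 2.92 in shDCBLD2, 3.21 in the empty vector and 0.969 in the labelled overexpression library, and BIRC2, the ligase cIAP1 and close relative of BIRC3, at 15.1, 20.3, 16.9 and 8.36 CPM. Both were lowest in the labelled overexpression library, with log2 ratios of -1.63 (-2.63 to -0.91) and -1.01 (-1.31 to -0.72). With sc as the reference REL was still called lower there, while BIRC2 was not called, at -0.85 (-1.16 to -0.56). In shDCBLD2 against sc, CD40, a TNF receptor family member, was the 1 upstream gene called, at -1.42 (-1.86 to -1.05), with 1.16% of all genes called higher and 5.62% lower, and between the controls 0 were called, beside 2.22% and 1.89%. The medians of the upstream genes were -0.03, 0.10 and -0.03 in the 3 comparisons, near those of all genes.

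Of 34 further known targets outside the module, 23 passed the filter. In the labelled overexpression library 6 were called higher and 1 lower than in the empty vector, in shDCBLD2 3 higher and 6 lower than in sc, and in the empty vector 4 higher and 1 lower than in sc. The shares of all genes beside these counts are the ones given for the members, 6.42% and 5.35%, 1.16% and 5.62%, and 2.22% and 1.89%. LCN2, the siderophore-binding protein lipocalin 2, gave 383 counts in sc, 19 in shDCBLD2, 255 in the empty vector and 2034 in the labelled overexpression library (19.6, 0.881, 13.9 and 123 CPM), a pattern like that of PTGS2 with ratios of 3.14 (2.96 to 3.34) and -4.32 (-5.22 to -3.81). TNFSF15, a TNF family ligand, gave 64, 11, 21 and 230 counts, with ratios of 3.49 (2.96 to 4.33) and -2.46 (-3.75 to -1.75), and -1.44 (-2.30 to -0.79) between the controls. Both were highest in the labelled overexpression library and lowest in shDCBLD2.

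SAA1, an acute phase protein, gave 11 counts in sc, 0 in shDCBLD2, 22 in the empty vector and 79 in the labelled overexpression library, so that shDCBLD2 was lower than sc by at least 4.04-fold when its 0 is set to 3 counts and sc is taken at its 11, while the counting interval of the log2 ratio reaches up to -1.47. SAA1 passed the filter only with the labelled overexpression library. TNC, the matrix protein tenascin C, gave 59, 195, 54 and 294 counts and was called higher in both shDCBLD2, at 1.55 (1.16 to 2.03), and the labelled overexpression library, at 2.56 (2.18 to 3.05). BCL2A1, an antiapoptotic BCL2 relative, gave 50, 220, 97 and 24 counts, the pattern of IL6, with ratios of 1.95 (1.55 to 2.47) in shDCBLD2 and -1.79 (-2.57 to -1.21) in the labelled overexpression library. It was also called higher in the empty vector than in sc, at 1.02 (0.54 to 1.57), and with the controls exchanged it was called in neither comparison, as for IL6. TNFAIP6, a hyaluronan-binding protein, was low in sc alone, with 4, 35, 25 and 22 counts, and was called higher in shDCBLD2 at 2.48 (1.51 to 4.94) and in the empty vector at 2.24 (1.20 to 4.72), each against sc. LTB, the lymphotoxin beta ligand, gave 14, 5, 40 and 104 counts, and PLAU, the urokinase protease, 1868, 2502, 3732 and 3088. They were the other leading calls between the controls, at 1.48 (0.70 to 2.60) and 1.09 (1.01 to 1.17). LTB was also called higher in the labelled overexpression library, at 1.49 (0.99 to 2.10) against the empty vector. In shDCBLD2 LTB was called lower than in sc, at -1.28 (-3.45 to -0.07).

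**Figure D5:**
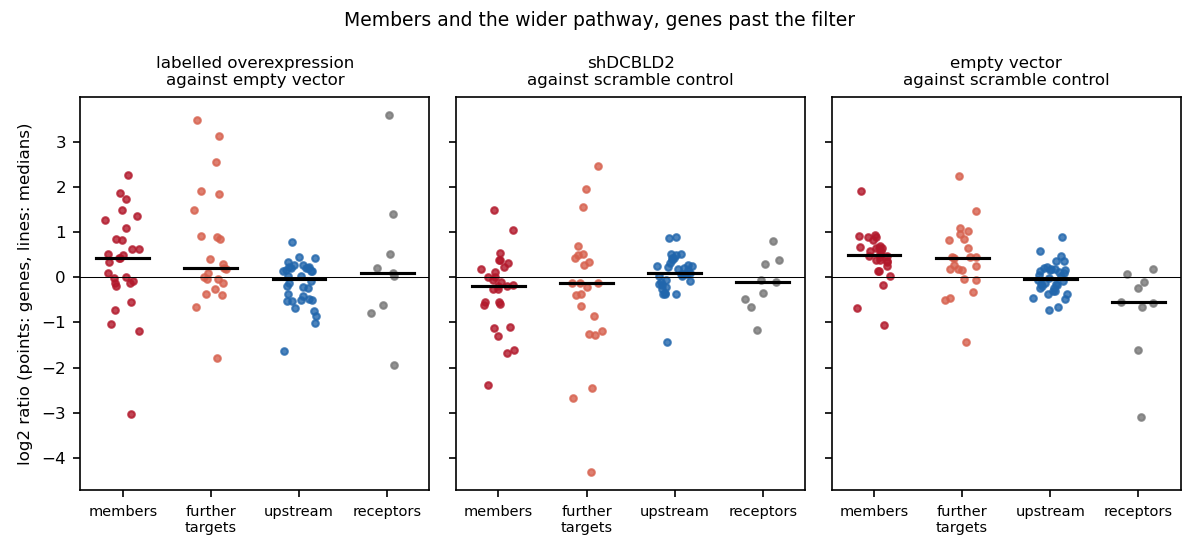
Log2 ratios of the members, of further targets, of upstream genes and of receptors of the member ligands past the filter, in the 3 comparisons, 1 library a side (points are genes, lines medians, sideways spread has no meaning). The upstream genes gather near 0, with medians of -0.03, 0.10 and -0.03, and SAA1, with 0 counts in shDCBLD2, is drawn at its fitted ratio.

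Several receptors for the chemokine members were all but absent from these cells. CXCR2, CCR2 and CCR6 had 0 counts in every library, CXCR1 no more than 1 and CX3CR1 no more than 4. Of the 22 genes of the receptor list, which also holds the antagonist IL1RN, 9 passed the filter, and 2 were called higher and 1 lower in the labelled overexpression library, beside 6.42% and 5.35% of all genes. Among the 9 was IL11RA, the IL-11 receptor, at 6.08, 7.51, 6.92 and 7.39 CPM, level in all libraries. IL1R2, a decoy receptor for interleukin-1, gave 34 counts in sc, 23 in shDCBLD2, 2 in the empty vector and 41 in the labelled overexpression library. It passed the filter only with the last of these, and its call of 3.60 (2.57 to 7.60) there is taken against a low empty vector library, which was called lower than sc at -3.11 (-7.10 to -2.03). CSF2RA, a subunit of the receptor for CSF2, gave 37, 17, 32 and 79 counts and was called higher in the labelled overexpression library at 1.40 (0.85 to 2.10) and lower in shDCBLD2 at -1.16 (-2.18 to -0.40). ACKR3, a scavenging receptor whose ligands CXCL11 and CXCL12 are not members, gave 1301, 2529, 398 and 92 counts and was called lower in the labelled overexpression library at -1.94 (-2.30 to -1.63) and lower in the empty vector than in sc at -1.61 (-1.78 to -1.45).

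Markers of other cell types were read beside the members. Of 10 blood cell markers (leukocyte genes and HBB, the erythroid haemoglobin beta gene), 6 (PTPRC, LYZ, TYROBP, FCER1G, CD3E and HBB) had 3 counts or fewer in every library. The list summed to 10.2 CPM in sc, 5.38 in shDCBLD2, 16.9 in the empty vector and 23.6 in the labelled overexpression library, mostly CD14, which was called lower in shDCBLD2 than in sc at -1.06 (-1.51 to -0.67). PTPRC, the leukocyte antigen CD45, had 0 counts in each. Of 10 fibroblast markers, 4 passed the filter, and 2 (COL1A2 and COL3A1), which passed it only with the labelled overexpression library, were called higher there, where 6.42% of all genes were, with a summed level of 38.2, 59.4, 45.5 and 82.3 CPM, COL1A1 the most abundant, and LUM and FAP at 3 counts or fewer throughout. COL1A2 was also called lower than sc in shDCBLD2, at -2.68 (-9.61 to -1.55), and in the empty vector. THY1 was called higher in the empty vector than in sc. POSTN, below the filter, gave 0, 0, 0 and 42 counts. Of 8 endothelial markers, 7 were matched and 1 passed the filter, at a summed level of 2.86, 2.74, 4.69 and 4.24 CPM.

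Of 6 markers of HEK293T, the line in which the lentivirus was made, 5 passed the filter and 3 (LIN28B, SALL1 and NEFM) were called higher in the labelled overexpression library, again beside 6.42% of all genes. They summed to 45.0 CPM in sc, 41.3 in shDCBLD2, 64.2 in the empty vector and 143 in the labelled overexpression library, PCSK1N being the most abundant. NEFM gave 1, 4, 0 and 221 counts and, like PAX2, passed the filter only with that library. PAX2 was called lower in shDCBLD2, at -1.50 (-4.01 to -0.28), and higher in the empty vector, at 1.29 (0.48 to 2.42), each against sc, and PAX2 and PCSK1N were not called between the vector libraries. With sc as the reference LIN28B, PAX2, SALL1, NEFM and PCSK1N were all called higher in the labelled overexpression library, beside 8.08% of all genes. EYA1, below the filter, gave 1, 0, 0 and 13 counts. The part of these markers in the result was not tested.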

How the data were processed

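Poly(A) RNA of 4 A549 lines was sequenced, with 1 library per condition. The authors deposited raw gene counts and FPKM in 1 table with human Ensembl identifiers; the processing notes name mm9, a mouse build, so the build of the deposited coordinates was not settled, and the aligner is not given in the sources used here. The deposited counts were used for ratios, and the deposited FPKM for levels between genes. Counts were scaled with edgeR 4.0.16 TMM factors (R 4.3.3), and log2 ratios used a prior count of 2. No significance test between libraries was run, since no condition has a replicate. The alternatives tried were DESeq2 1.42.0 size factors, library totals, other prior counts, filters, a lower threshold and the other control, and the calling code was checked on simulated data. Figures and intervals used Python 3.11.15, scipy 1.17.1, pandas 2.3.3 and matplotlib 3.10.9. A ratio with 0 counts on 1 side is a bound against 3 counts, and no ratio is given where both sides have 3 counts or fewer. All 34 members were described by role, and of each other list the 3 highest and 3 lowest called genes. Members and lists were chosen with earlier results of these data known.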

Additional observations from a re-analysis of the deposited data

How the results depend on the processing

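DESeq2 size factors and prior counts of 0.5 and 5 left the counts of called members as they were. Library totals raised the members called lower in shDCBLD2 from 4 to 6, adding CCL5 and CCL20. The share of all genes called lower there rose from 5.62% to 6.001%. Both added members passed the filter only with the labelled overexpression library. With sc as the reference of the labelled overexpression library, 11 members were called higher and 1 lower (8.08% and 8.98% of all genes), with a median of 0.81. With the empty vector as the reference of shDCBLD2, 0 were called higher and 7 lower (2.23% and 8.01% of all genes), with a median of -0.59. With a mean of at least 5 CPM, which tests fewer genes, 5 members were called higher and 1 lower in the labelled overexpression library (3.13% and 4.55% of all genes). In shDCBLD2 1 was then called higher and 2 lower (0.554% and 3.11% of all genes), and in the empty vector against sc 0 higher (0.886%). With no filter the labelled overexpression library had 9 members called higher (3.2% of all genes), with IL1B and CX3CL1 added, and a median of 0.51. In shDCBLD2 5 were then called lower (2.2% of all genes), with IL1B added. At 1.5-fold, 10 members were called higher and 4 lower in the labelled overexpression library (12.81% and 17.79% of all genes). In shDCBLD2 2 were called higher and 6 lower (4.93% and 11.59% of all genes). At that threshold 12 members were called higher and 2 lower in the empty vector against sc (7.07% and 6.67% of all genes). The next alternative, chosen after seeing the data, left the labelled overexpression library out of scaling and filter, at 2-fold. In the empty vector against sc it gave 0 called higher and 1 lower (2.03% and 1.76% of all genes). With all 4 libraries these were 1 and 1 (2.22% and 1.89% of all genes). With the filter alone set on the other 3 libraries, also chosen after seeing the data, the labelled overexpression library had 6 called higher and 3 lower and a median of 0.38. With that filter and the controls exchanged, also added after seeing the data, the labelled overexpression library had 9 called higher and 1 lower and a median of 0.80, and shDCBLD2 had 0 higher and 5 lower and a median of -0.57. Of 675 ratios of single members, 576 stayed within their counting interval and 99 moved beyond it (all but 2 with the other control). Among those called, 0 changed sign. Settings that change only the filter leave each ratio as it was, so their values could not move. These are 84 of the 576 with no filter, 69 at 5 CPM and 26 with the filter on the other 3 libraries. The exchanged controls entered under 2 filters, with 49 and 48 of the 99, so the same ratios count again. No paired analysis was possible because each condition has 1 library. Depth limits IL1A, IL24, CSF2 and CSF3, with 14 counts or fewer.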
